A study of Mus musculus with 24 samples.

Results

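The genes described here are 10 NF-kB target and inflammatory cytokine genes, Tnf, Il1b, Il6, Cxcl1, Il1rn, Nfkbia, Tnfaip3, Birc3, Nfkb2 and Relb, which represent the signalling arm downstream of STING that does not run through interferon. They were chosen by name, and all 10 symbols matched 1 row each among the 54532 genes counted in every library. RNA-Seq counts were obtained from tongue, muscle, stomach and heart of Trex1-KO mice with or without administration of SN-011, a STING antagonist, with 3 libraries in each of 8 groups and 24 libraries in all. All mice carried the Trex1 knockout, controls included, so there is no wild-type level in these data. The labels call the control mice untreated and give SN-011 at a dose of 5 mg/kg on 3 occasions a week over 4 weeks, whereas the methods text gives a vehicle for the controls and a higher daily dose over a shorter course in mice aged 1 month. Groups were taken from the tissue and treatment labels alone. No source used here says which libraries came from the same mouse, so the p-values measure only the spread between these libraries.

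Trex1 is an exonuclease that removes DNA from the cytosol. Without it, self DNA activates the sensor cGAS, which makes the second messenger cGAMP and so activates STING. STING recruits the kinase TBK1, which activates IRF3 and the interferon genes, and it also activates the IKK kinases. In the canonical NF-kB pathway, IKK marks the inhibitor IkBa for degradation and frees RelA-p50 dimers to enter the nucleus, where they switch on cytokines, chemokines and their own inhibitors. In the non-canonical pathway, the p100 precursor is processed to p52, which pairs with RelB.

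The libraries held 14253416 to 18443329 counts, and 3 counts, taken as the smallest abundance that can be shown, were 0.163 to 0.210 CPM, the share of a library's counts scaled to a library of standard size. This floor covers counting error only. Trex1 itself had 0 counts in all 24 libraries, but it overlaps another annotated gene, Atrip, so this does not check the genotype. Xist, which is X-linked, was at 3060 to 13811 counts in control replicate 1 of each tissue and at 20 counts or fewer elsewhere, whereas Ddx3y, which is Y-linked, was at 3 counts or fewer in the former and 825 or more in the latter. Every SN-011 library was of the latter kind, so by these counts sex was not balanced between the treatments, and its part in the results was not tested. In the muscle, replicate 2 of the SN-011 group detected 11546 genes where all other libraries detected 19798 or more, and had 0 counts of Tnf, Il1b, Il6, Tnfaip3, Cxcl1 and Il1rn. The summed abundance of 8 gastric gland markers was 2670 CPM in heart control replicate 2, 2652 in tongue control replicate 2, 1895 in tongue control replicate 3 and 581 in muscle control replicate 2. It was 264 CPM in heart control replicate 3 and 246 in muscle control replicate 3. Any SN-011 library outside the stomach held at most 41.7 CPM, and the stomach controls 36684 to 126044 CPM. Every SN-011 effect outside the stomach is therefore given below beside controls of which some carry stomach transcripts, and the part of this in the results was not tested.

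NF-kB dimers bind kB sites, short DNA elements that begin with G bases and end with C bases. Promoter windows of 300 bases, from 250 bases before to 50 after the transcript start, were read from RefSeq (GRCm38.p6) for 9 of the 10 genes, Relb being the exception, in 14 windows. A run of GGG, any 5 bases and CC, on either strand, occurred in 13 of the 14 windows, against 50.79% of 32851 mouse promoter windows of this length. The narrower kB consensus, a subset of the same 10-base pattern, occurred in 7 of the 14, those of Il6, Cxcl1, Nfkbia, Tnfaip3 and all 3 of Nfkb2, against 4.51% of all windows. Matches to the consensus are shown for these 5 genes because such elements are those through which NF-kB is held to act. Not all are shown, and Cxcl1 also has an overlapping match on the opposite strand that begins 70 bases before the start, Tnfaip3 1 that begins 125 bases before it, and Nfkb2 several, of which 1 begins 10 bases after another of its starts. Each is written 5′ to 3′ on the strand of the gene, with the matched bases in capitals and 10 bases on each side.

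Il6, chr5:30013060-30013089, plus strand: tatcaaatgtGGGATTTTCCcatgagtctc
Cxcl1, chr5:90891164-90891193, plus strand: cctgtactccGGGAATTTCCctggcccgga
Nfkbia, chr12:55492657-55492686, minus strand: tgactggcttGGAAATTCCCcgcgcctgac
Tnfaip3, chr10:19015403-19015432, minus strand: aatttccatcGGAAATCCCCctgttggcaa
Nfkb2, upstream, chr19:46304688-46304717, plus strand: ggatcgtcacGGGAATTCCCcccctcgggg
Nfkb2, proximal, chr19:46304716-46304745, plus strand: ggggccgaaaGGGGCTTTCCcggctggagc

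The matched bases began 44 bases before the transcript start in Il6, 71 in Cxcl1, 29 in Nfkbia, 12 in Tnfaip3, and 39 and 11 in Nfkb2. In Nfkbia and Tnfaip3 the match lay on the strand opposite to the gene, and the Nfkbia match, read on its own strand, was GGGAATTTCC, the same 10 bases as in Cxcl1. In the windows of Tnf, Il1b, Birc3 and Il1rn the consensus letters were not found, which says only that these letters are not in these windows. A match is a description of sequence, and binding was not measured.

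In the control tissues, Nfkbia was the most abundant of the 10 genes per length in all 4 tissues and Il6 the least abundant. Levels are given as FPKM, the CPM of the joint fit divided by the union of exon lengths, as mean ± SD with n = 3. Nfkbia, which encodes IkBa, stood at 80.3 ± 11 FPKM in the tongue, 53.7 ± 19.8 in the heart, 44.3 ± 29.5 in the muscle and 27.8 ± 2.20 in the stomach. Il6, an acute-phase cytokine, stood at 0.201 ± 0.119 FPKM in the muscle, 0.189 ± 0.0587 in the heart, 0.142 ± 0.0881 in the tongue and 0.0594 ± 0.0336 in the stomach, and its libraries overlapped between the muscle, heart and tongue. The subunit genes Nfkb2 and Relb ranked below Nfkbia and within the top 4 of the 10 genes in every tissue. The highest ratio between tissue means among the 10 was that of Il1rn, the interleukin-1 receptor antagonist.

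**Figure D1:**
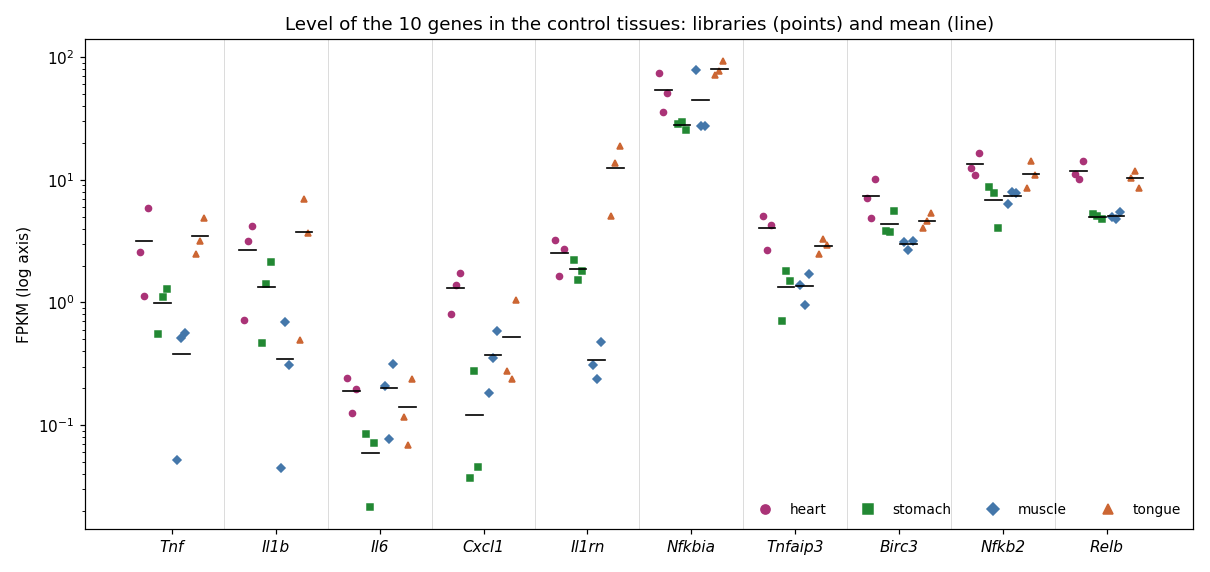
Level of each gene in the 3 control libraries of each tissue, as FPKM on a log axis, with the mean as a line. Il1rn ranges from 0.340 FPKM in the muscle to 12.6 in the tongue, and the Relb libraries of the heart and tongue all lie above those of the stomach and muscle.

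Il1rn reached 12.6 ± 6.997 FPKM in the tongue, where its libraries ran from 5.10 to 19.0, against 2.54 ± 0.831 in the heart, 1.86 ± 0.346 in the stomach and 0.340 ± 0.122 in the muscle. The tongue libraries lay above all others and the muscle libraries below all others, while heart and stomach overlapped. Between control groups, the log2 difference in Il1rn was 5.199 ± 0.63 (SE) for tongue over muscle (edgeR adjusted p = 1.44e-06), 2.90 ± 0.58 for heart over muscle (edgeR adjusted p = 0.000593) and 2.44 ± 0.57 for stomach over muscle (edgeR adjusted p = 0.00133). It was -2.76 ± 0.54 for stomach against tongue (edgeR adjusted p = 0.000455) and -2.30 ± 0.53 for heart against tongue (edgeR adjusted p = 0.00251), while heart and stomach differed by 0.46 ± 0.51 (edgeR adjusted p = 0.510). Summed markers of squamous epithelium, which covers the tongue, were 13460, 41764 and 60155 CPM in tongue control replicates 1, 2 and 3, in the same order as Il1rn in those libraries. Whether the tongue level of Il1rn goes with its epithelium was not tested. With the longest transcript in place of the exon union, the Il1rn levels were 27.2 FPKM in the tongue, 5.51 in the heart, 4.03 for the stomach and 0.736 for the muscle. That of Birc3 for the heart was 12.7 in place of 7.35.

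Relb formed a high pair and a low pair of tissues, with 11.8 ± 2.09 FPKM in the heart and 10.3 ± 1.58 in the tongue against 5.08 ± 0.336 in the muscle and 5.00 ± 0.246 in the stomach. Its 6 heart and tongue libraries all lay above its 6 stomach and muscle libraries. The log2 difference was 1.23 ± 0.19 for heart over stomach (edgeR adjusted p = 3.12e-05), 1.21 ± 0.19 for heart over muscle (edgeR adjusted p = 5.37e-05), 1.01 ± 0.19 for tongue over muscle (edgeR adjusted p = 0.000260) and -1.04 ± 0.19 for stomach against tongue (edgeR adjusted p = 0.000243). Within the pairs no difference was called, with 0.20 ± 0.19 for heart over tongue (edgeR adjusted p = 0.470). The 3 other levels that kept their call with any 1 library left out were Cxcl1, higher in the heart than in the stomach by 3.38 ± 0.98 (edgeR adjusted p = 0.00864), Tnf, higher in the tongue than in the muscle by 3.19 ± 0.92 (edgeR adjusted p = 0.00872), and Nfkbia, lower in the stomach than in the tongue by 1.53 on the log2 scale (edgeR adjusted p = 0.000783). The Tnf call was lost without all control replicate 1 libraries (log2 2.88).

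Over the control tissues, 5 of the 10 genes were called between heart and muscle (33.7% of 19731 genes), 5 between heart and stomach (42.5%), 1 between heart and tongue (29.1%), 1 between stomach and muscle (51.6%), 3 between stomach and tongue (36.9%) and 5 between tongue and muscle (38.1%). The share of the 10 genes was above that of all genes in 3 of these 6 pairs and below it in the other 3. These tests took the libraries as independent, whereas control libraries of 1 number deviated together in some pairs of tissues. With the replicate number as a block among control samples, 7 of the 10 genes were called between heart and muscle (39.4% of all genes), where Tnfaip3 (log2 1.56, edgeR adjusted p = 0.00769) and Nfkb2 (0.85, edgeR adjusted p = 0.0497) were added. Between tongue and muscle 7 were called (44.4%), where Tnfaip3 (1.07, edgeR adjusted p = 0.0369) and Birc3 (0.59, edgeR adjusted p = 0.0421) were added. The block gave 6 between heart and stomach (47.2%), 2 between heart and tongue (32.8%), 2 between stomach and muscle (57.1%) and 5 between stomach and tongue (40.7%). Several calls rested on single libraries. Tnf, higher in the heart than in the muscle by 3.07, lost its call without heart control replicate 3 (2.29) or muscle control replicate 1 (2.54). Il1b, higher in the heart than in the muscle by 2.95, lost it without heart control replicate 2 (2.82) or 3 (2.48) or muscle control replicate 1 (2.42) or 3 (2.87), and Il1b in tongue against muscle (3.42) lost it without tongue control replicate 2 (2.58) or muscle control replicate 1 (2.90) or 3 (3.35). Birc3, at 1.29 for heart over muscle, lost its call without heart control replicate 3 (1.00). For heart over stomach, Tnfaip3 (1.59) lost its call without any 1 library other than heart control replicate 2 (1.28 to 1.87), Nfkb2 (0.97) without heart control replicate 1 or 3 or stomach control replicate 2 or 3 (0.69 to 1.08), and Nfkbia (0.95) without heart control replicate 1 (0.64) or stomach control replicate 3 (0.89). For tongue over muscle, Nfkbia (0.86) lost its call without tongue or muscle control replicate 2 or 3 (0.60 to 0.89).

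After SN-011 administration, most tested genes of the 10 had negative log2 fold changes in the tongue, heart and muscle and positive ones in the stomach. None of them was called in any single tissue at an adjusted p under 0.05. Over all genes tested, 51.5% of log2 fold changes were negative in the tongue, 51.4% in the heart, 55.5% in the muscle and 49.8% in the stomach. In the tongue, 9 of the 10 genes had enough counts to be tested, all 9 log2 fold changes of SN-011 over control were negative, and their median was -0.60 against -0.01 over all 16587 genes tested. In the heart, 8 of 9 tested genes had a negative log2 fold change, with a median of -0.36 against -0.01 over 16151 genes. In the stomach, 7 of 8 tested genes had a positive log2 fold change, with a median of 0.20 against 0.00 over 17031 genes. Stomach values of Il1b, Tnfaip3, Birc3 and Tnf crossed 0 when single libraries were left out. In the muscle, 5 of 6 tested genes had a negative log2 fold change, with a median of -0.53 against -0.08 over 14198 genes. In bulk tissue, fewer cells of an expressing type and less RNA per cell cannot be told apart.

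With the quasi-likelihood test of edgeR and p-values adjusted by Benjamini-Hochberg over all genes, 0 of the tested genes were called in each tissue, where the share of all genes called was 0.848% for the heart, 0.0% for the stomach, 0.0141% for the muscle and 0.0% for the tongue. At an unadjusted p under 0.05, the numbers were 3 of 9 for the heart (all genes, 22.4%), 1 of 8 for the stomach (24.6%), 0 of 6 for the muscle (14.8%) and 7 of 9 for the tongue (12.5%). DESeq2 called 2 heart genes (Relb and Tnf, where it called 8.43% of all genes), 1 stomach gene (Nfkbia, 14.0%), 0 muscle genes (6.2%) and 3 tongue genes (Il1rn, Relb and Tnf, 2.52%). The exact test of edgeR called 2 heart genes (Relb and Tnf, where it called 5.68% of all genes), 0 stomach genes (10.8%), 0 muscle genes (3.37%) and 2 tongue genes (Il1rn and Tnf, 1.53%). Of the tested genes, those whose SN-011 libraries all lay below the control libraries were 2 for the heart (all genes, 13.1%), 0 for the stomach (15.2%), 0 for the muscle (19.8%) and 6 for the tongue (8.38%). Those whose SN-011 libraries all lay above were 0 for the heart (14.1%), 2 for the stomach (17.8%), 0 for the muscle (14.7%) and 0 for the tongue (9.39%). Of these 8 counts, that of lower genes in the tongue lay furthest above the share of all genes, and 5 of the 8 were 0.

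**Figure D2:**
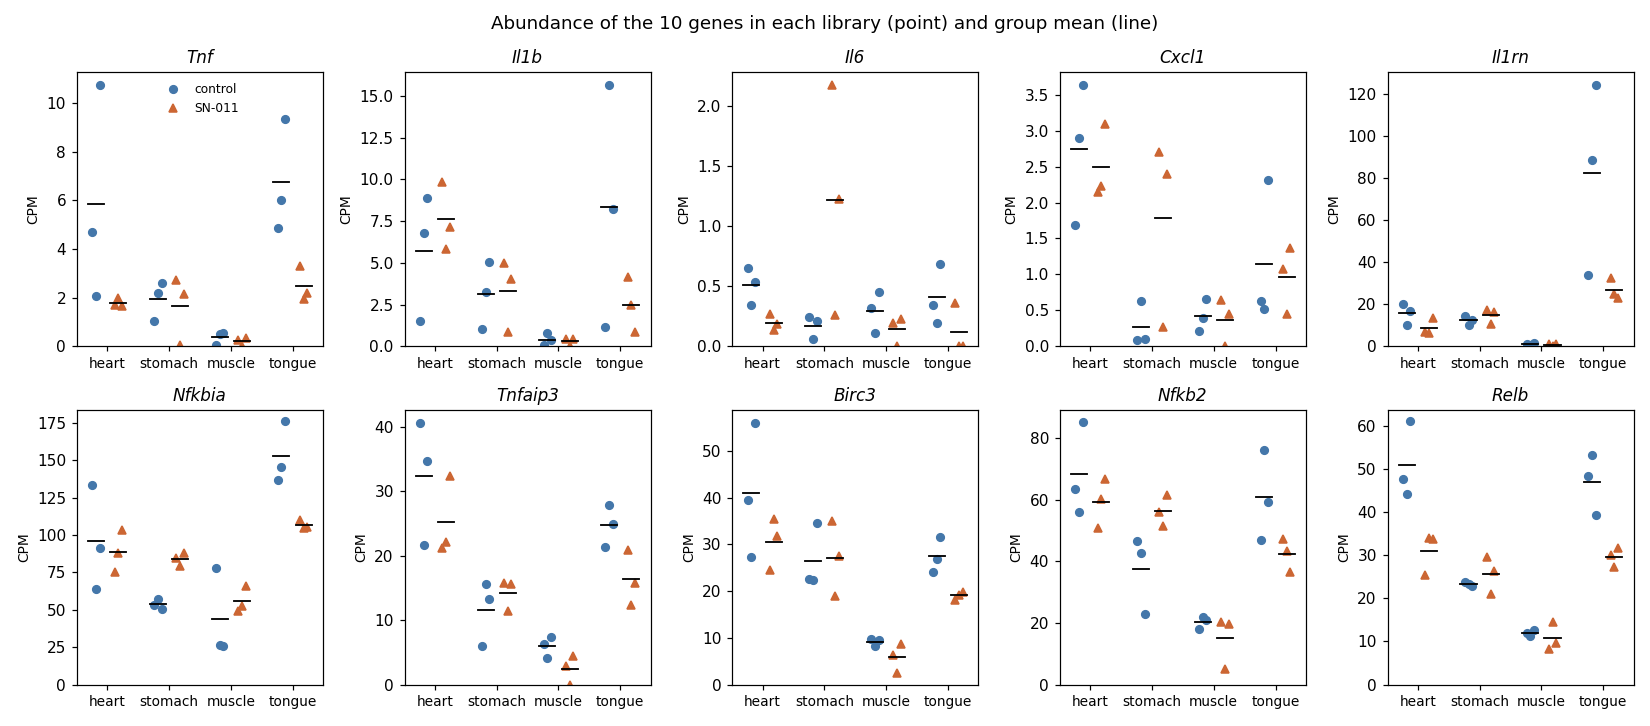
Abundance of the 10 genes in CPM on linear axes from 0, with each library as a point (circles, control; triangles, SN-011) and the group mean as a line. In the tongue the SN-011 libraries of Tnf, Il1rn, Nfkbia, Tnfaip3, Birc3 and Relb lie below all control libraries, and in the stomach those of Nfkbia, Nfkb2 and Il6 lie above.

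Among the cytokines, Tnf (chromosome 17, 35199381 to 35202007, minus strand), which encodes tumour necrosis factor, had negative log2 fold changes in all 3 tissues where it could be tested. In the heart it stood at 4.68, 2.07 and 10.8 CPM in the control libraries and at 1.68, 1.97 and 1.64 CPM in the SN-011 libraries. The groups did not overlap, although control replicate 2 lay just above the SN-011 libraries. The log2 fold change was -1.73 ± 0.53 (SE, edgeR adjusted p = 0.117), and without control replicate 2 it was -2.12 (edgeR adjusted p = 0.0313). Without control replicate 3, the highest control, it was -0.95 (edgeR adjusted p = 0.308). In the tongue Tnf stood at 4.89, 6.02 and 9.37 CPM in controls and at 3.28, 1.94 and 2.18 CPM after SN-011. All SN-011 libraries again lay below all controls, with a log2 fold change of -1.45 ± 0.36 (edgeR adjusted p = 0.273). In the stomach, at 1.05, 2.18 and 2.62 CPM against 2.71, 0.0660 and 2.15 CPM, the groups overlapped and the log2 fold change was -0.25 ± 0.96 (edgeR adjusted p = 0.894). In the muscle Tnf had 1, 9 and 11 counts in controls and 4, 0 and 6 after SN-011, too few to be tested.

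Il1b (chromosome 2, 129364570 to 129371139, minus strand), which encodes the precursor of interleukin-1 beta, varied widely among the tongue controls. In the tongue it stood at 1.14, 15.7 and 8.24 CPM in controls and at 4.18, 2.46 and 0.872 CPM after SN-011, so that control replicate 1 lay among the SN-011 libraries and the other controls above them. The log2 fold change was -1.73 ± 0.90 (edgeR adjusted p = 0.452), and -0.90 without control replicate 2 (edgeR adjusted p = 0.820). In the heart it stood at 1.52, 6.77 and 8.88 CPM against 9.87, 5.85 and 7.13 CPM, and in the stomach at 1.05, 3.24 and 5.03 CPM against 5.01, 0.857 and 4.05 CPM. Groups overlapped in both, with log2 fold changes of 0.41 ± 0.51 (edgeR adjusted p = 0.673) and 0.08 ± 0.75 (edgeR adjusted p = 0.958). In the muscle it had at most 14 counts in any library and was not tested. Its exons overlap those of the antisense gene Il1bos over 25 bases, and the strand setting of the counting is not given in the sources used here.

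Il6 (chromosome 5, 30013114 to 30019981, plus strand) and Cxcl1 (chromosome 5, 90891241 to 90893115, plus strand), which encodes a chemokine for neutrophils, had few counts. Il6 was most abundant after SN-011 in the stomach, whereas Cxcl1 was most abundant in the heart in both groups. Il6 had 3, 1 and 4 counts in the stomach controls and 37, 4 and 20 counts in the stomach SN-011 libraries, at 0.242, 0.0624 and 0.214 CPM against 2.18, 0.264 and 1.23 CPM. By CPM the SN-011 libraries lay above the controls, replicate 2 only just, with an exact permutation p = 0.100, the smallest that 3 against 3 allows. Cxcl1 had 1, 10 and 2 counts in the stomach controls and 46, 4 and 39 counts after SN-011. SN-011 replicates 1 and 3 lay above the controls and replicate 2 among them (exact permutation p = 0.200, two-sided). Neither gene passed the count filter in the stomach.

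In the heart, Il6 had 12, 5 and 10 counts in controls and 4, 2 and 3 counts after SN-011, without overlap (exact permutation p = 0.100) but close to the floor of 3 counts. Heart Cxcl1 stood at 1.69, 2.90 and 3.64 CPM against 2.15, 2.24 and 3.09 CPM, within the range of the controls, with a log2 fold change of -0.14 ± 0.36 (edgeR adjusted p = 0.858). In the tongue, Il6 had 6, 3 and 11 counts in controls and 6, 0 and 0 after SN-011, and Cxcl1 stood at 0.625, 0.518 and 2.31 CPM against 1.07, 0.453 and 1.37 CPM (log2 fold change -0.25 ± 0.70, edgeR adjusted p = 0.896). Both overlapped between groups. In the muscle both genes stayed at or below 13 counts in every library.

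Il1rn (chromosome 2, 24336853 to 24351494, plus strand), whose product blocks the interleukin-1 receptor, had its largest difference where its level was highest. In the tongue it stood at 33.8, 88.2 and 124 CPM in controls and at 32.2, 25.0 and 23.1 CPM after SN-011. The SN-011 libraries lay below all controls, but control replicate 1 exceeded the highest of them by little. The log2 fold change was -1.61 ± 0.43 (edgeR adjusted p = 0.282), and without tongue control replicate 1 it was -1.98 (edgeR adjusted p = 0.00181). Without tongue control replicate 3, the highest, it was -1.19 (edgeR adjusted p = 0.395). In the heart Il1rn stood at 19.97, 10.2 and 16.9 CPM against 6.65, 6.44 and 13.2 CPM, where SN-011 replicate 3 lay within the controls and the others below (log2 fold change -0.84 ± 0.33, edgeR adjusted p = 0.181). In the stomach, at 14.4, 10.2 and 12.4 CPM against 17.1, 10.7 and 16.2 CPM, the log2 fold change was 0.25 ± 0.31 (edgeR adjusted p = 0.642). In the muscle, where it had 20, 14 and 31 counts against 15, 0 and 18, it was -0.75 ± 1.21 (edgeR adjusted p = 0.805), and -0.19 without SN-011 replicate 2.

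Among the feedback inhibitors, Nfkbia (chromosome 12, 55489410 to 55492647, minus strand), itself an NF-kB target whose product holds NF-kB in the cytoplasm, moved apart without overlap in opposite directions in 2 tissues. In the stomach it stood at 53.2, 57.1 and 50.7 CPM in controls and at 84.7, 79.3 and 87.9 CPM after SN-011. All SN-011 libraries lay above all controls, by a wide margin against the spread within groups, and the log2 fold change was 0.65 ± 0.20 (edgeR adjusted p = 0.118). In the tongue it stood at 137, 145 and 176 CPM in controls and at 110, 104 and 105 CPM after SN-011, all below the controls, with a log2 fold change of -0.52 ± 0.13 (edgeR adjusted p = 0.278). In the heart, at 133, 63.9 and 91.5 CPM against 75.5, 88.1 and 103 CPM, and in the muscle, at 78.2, 26.5 and 26.0 CPM against 49.2, 52.2 and 66.2 CPM, control replicate 1 was the highest library and groups overlapped. Log2 fold changes of -0.12 ± 0.24 were found in the heart (edgeR adjusted p = 0.812) and 0.36 ± 0.45 in the muscle (edgeR adjusted p = 0.760).

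Tnfaip3 (chromosome 10, 19000910 to 19015657, minus strand) encodes A20, a ubiquitin-editing enzyme that ends NF-kB signalling. In the tongue it stood at 21.4, 27.9 and 25.0 CPM in controls and at 20.8, 12.4 and 15.7 CPM after SN-011, below the controls in every library, SN-011 replicate 1 only just (log2 fold change -0.60 ± 0.22, edgeR adjusted p = 0.364). In the heart, at 40.6, 21.6 and 34.8 CPM against 21.2, 22.2 and 32.4 CPM, groups overlapped (-0.36 ± 0.25, edgeR adjusted p = 0.422). In the stomach, at 5.97, 15.7 and 13.3 CPM against 15.8, 11.4 and 15.7 CPM, they overlapped as well (0.29 ± 0.39, edgeR adjusted p = 0.672). In the muscle it had 118, 73 and 146 counts against 45, 0 and 78, and the log2 fold change of -1.26 ± 1.24 (edgeR adjusted p = 0.696) was -0.68 without SN-011 replicate 2.

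Birc3 (chromosome 9, 7848699 to 7873186, minus strand) encodes cIAP2, a ubiquitin ligase of the TNF receptor complex and of the non-canonical kinase NIK. In the tongue it stood at 24.1, 26.9 and 31.6 CPM in controls and at 18.2, 19.2 and 19.9 CPM after SN-011. All SN-011 libraries lay below all controls and within a narrow range (log2 fold change -0.53 ± 0.15, edgeR adjusted p = 0.288). In the heart, at 39.6, 27.4 and 56.1 CPM against 24.5, 35.5 and 31.7 CPM, in the stomach, at 22.5, 22.3 and 34.6 CPM against 35.0, 19.0 and 27.5 CPM, and in the muscle, at 9.71, 8.15 and 9.48 CPM against 6.42, 2.45 and 8.73 CPM, groups overlapped. The log2 fold changes were -0.43 ± 0.25, 0.04 ± 0.30 and -0.63 ± 0.47, with edgeR adjusted p = 0.343, 0.956 and 0.596.

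Of the subunit genes, Relb (chromosome 7, 19606217 to 19629438, minus strand) encodes RelB, the partner of p52. In the heart it stood at 47.7, 44.1 and 61.1 CPM in controls and at 25.5, 34.1 and 33.7 CPM after SN-011. In the tongue it stood at 48.5, 53.3 and 39.5 CPM in controls and at 30.1, 27.2 and 31.6 CPM after SN-011. In both tissues all SN-011 libraries lay below all controls. The log2 fold change was -0.71 ± 0.17 in the heart (edgeR adjusted p = 0.0754) and -0.67 ± 0.15 in the tongue (edgeR adjusted p = 0.268). Without heart control replicate 2 the heart value was -0.81 (edgeR adjusted p = 0.0421). In the stomach, at 23.7, 23.3 and 22.8 CPM against 29.6, 21.1 and 26.4 CPM, and in the muscle, at 12.03, 11.3 and 12.6 CPM against 8.31, 14.4 and 9.75 CPM, the SN-011 libraries lay on both sides of the tightly grouped controls. The log2 fold changes were 0.14 ± 0.23 in the stomach (edgeR adjusted p = 0.734) and -0.15 ± 0.26 in the muscle (edgeR adjusted p = 0.822), the latter -0.41 without SN-011 replicate 2.

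Nfkb2 (chromosome 19, 46304320 to 46312385, plus strand) encodes p100, the precursor of p52. In the stomach it stood at 46.5, 42.8 and 22.8 CPM in controls and at 56.1, 51.4 and 61.5 CPM after SN-011. The SN-011 libraries lay above all controls, of which replicate 3 was far below the others. The log2 fold change was 0.59 ± 0.29 (edgeR adjusted p = 0.249), and 0.32 without control replicate 3. In the tongue, at 46.9, 76.1 and 59.3 CPM against 47.2, 43.3 and 36.4 CPM, control replicate 1 lay within the SN-011 libraries (-0.52 ± 0.20, edgeR adjusted p = 0.378). In the heart, at 63.6, 56.0 and 85.0 CPM against 50.7, 60.0 and 66.7 CPM, and in the muscle, at 18.0, 21.9 and 21.1 CPM against 20.4, 4.98 and 19.7 CPM, groups overlapped. Log2 fold changes of -0.21 ± 0.17 were found in the heart (edgeR adjusted p = 0.506) and -0.43 ± 0.49 in the muscle (edgeR adjusted p = 0.740), the latter -0.02 without SN-011 replicate 2. Nfkb2 exons overlap those of Psd on the other strand over 299 bases, and the other 8 genes overlap no other gene.

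**Figure D3:**
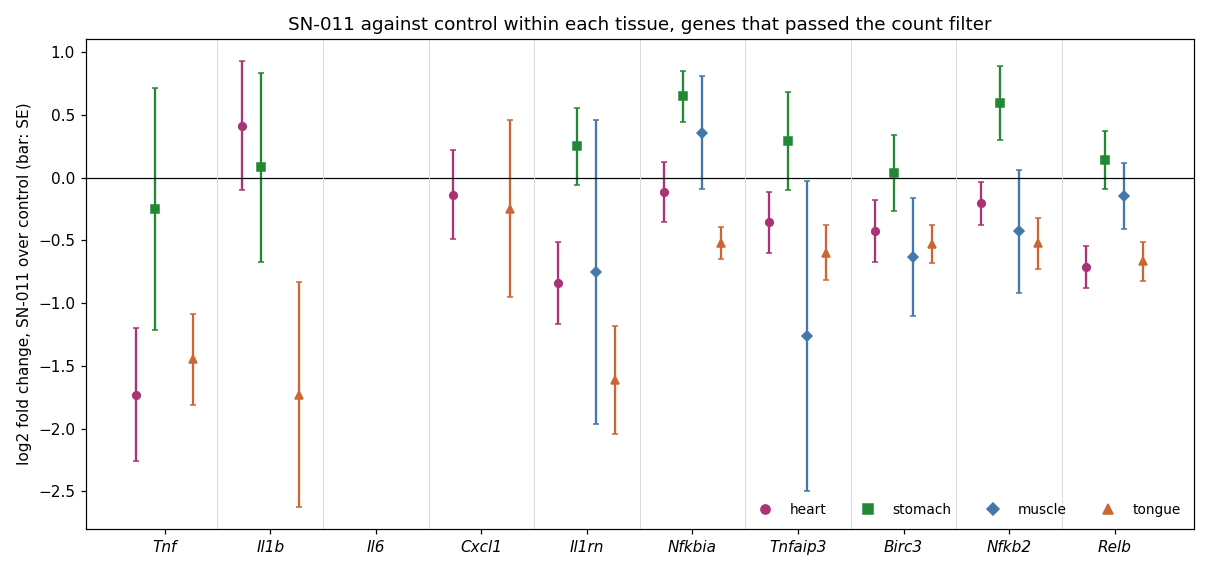
Log2 fold change of SN-011 over control with its SE in each tissue, for each gene that passed the count filter there; Il6 passed in none. Tongue values are all below 0, from -0.25 to -1.73, and the stomach values of all but Tnf lie above 0, up to 0.65.

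The tongue result turned on 1 library. Without tongue control replicate 1, the library with Xist counts, 7 of the 9 tested genes had an edgeR adjusted p under 0.05, among 2135 genes called of 17142 (1379 of them lower after SN-011). These were Il1rn at -1.98, Il1b at -2.25 (edgeR adjusted p = 0.0372), Tnf at -1.63 (edgeR adjusted p = 0.0248), Nfkb2 at -0.68 (edgeR adjusted p = 0.0349), Relb at -0.64 (edgeR adjusted p = 0.0392), Birc3 at -0.61 (edgeR adjusted p = 0.0303) and Nfkbia at -0.59 (edgeR adjusted p = 0.0231). With any other tongue library left out, 0 of these genes were called, and 0 of all genes tested. The controls that remain, replicates 2 and 3, are those with gastric gland transcripts. Replicate 3 also carried 371 CPM of 8 summed neutrophil markers, of which 2 were at 0 in every control, against 12.7 and 12.9 in the other tongue controls and 7.91 to 13.9 after SN-011. Of these 8 markers, 3 passed the count filter in the tongue. Squamous epithelium markers overlapped between the tongue groups (13460 to 60155 CPM in controls and 16840 to 25415 after SN-011), as did macrophage markers (965 to 2369 and 1368 to 1780 CPM), whereas B and plasma cell markers lay lower after SN-011 (19.2 to 32.1 and 12.1 to 18.5 CPM) and so did mast cell markers (18.3 to 49.3 and 9.65 to 13.4 CPM). Their part in the tongue values was not tested.

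In the heart, the Tnf and Relb calls named above without heart control replicate 2 also concern a library with gastric gland transcripts, and 787 of 16599 genes were called without it. Heart control replicate 3, which stayed in that fit, carried 264 CPM of these markers, against 5.91 to 37.5 CPM in the heart after SN-011. Fibroblast markers lay lower in the heart after SN-011 (2449 to 3538 CPM in controls and 1673 to 1895 after SN-011, with 1 of 6 called, Lum). So did mast cell markers (9.88 to 13.0 and 5.26 to 5.49 CPM), of which only 1 of 6 was tested. The summed adipocyte markers lay higher (682 to 834 and 1066 to 1219 CPM), but 3 of the 4 tested genes of this list had a negative log2 fold change (median -1.03). Macrophage markers (2259 to 2847 and 2118 to 2916 CPM), neutrophil markers and T cell markers overlapped. Their part in the heart values was not tested.

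In the stomach, the libraries differed in their makeup along with the treatment. Summed squamous epithelium markers, of which none was at 0, were 118 to 247 CPM in controls and 466 to 1522 CPM after SN-011, with 0 of 8 called and 7 of 8 at an unadjusted p under 0.05. Neutrophil markers, of which 1 of 8 was at 0 in controls and 3 of 8 passed the count filter, were 2.66 to 6.42 CPM in controls and 10.03 to 21.7 CPM after SN-011. Summed adipocyte markers lay higher after SN-011 (41.5 to 160 and 172 to 253 CPM), but 2 of the 5 tested genes of this list had a negative log2 fold change. B and plasma cell markers lay lower (587 to 1064 and 274 to 471 CPM), while macrophage markers overlapped (545 to 819 and 445 to 1279 CPM). SN-011 replicates 1 and 3, the libraries with most Il6 and Cxcl1, were also those with most squamous markers (1522 and 924 CPM, against 466 in replicate 2) and most neutrophil markers (21.7 and 16.5 CPM, against 10.03). Mitochondrial genes took 3.00%, 5.44% and 7.25% of counts in controls and 14.9%, 7.08% and 11.1% after SN-011. The part of these in the stomach values was not tested.

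In the muscle, the largest SN-011 differences of the 10 genes came with the library of few detected genes. Without SN-011 replicate 2, 1103 of 14903 genes were called and still 0 of the 6 tested genes, with log2 fold changes from -0.68 for Tnfaip3 to 0.40 for Nfkbia and an edgeR adjusted p of 0.112 for Relb as the smallest. Fibroblast markers lay lower in the muscle after SN-011 (1303 to 1838 and 642 to 928 CPM), as did endothelial markers (215 to 266 and 177 to 200 CPM) and squamous epithelium markers (6.34 to 9.28 and 4.48 to 4.98 CPM). Of the 8 squamous markers, however, 6 had at most 3 counts in every muscle library and only 1 was tested. Summed skeletal muscle fibre markers lay higher (112858 to 126044 and 136981 to 160465 CPM), but 2 of the 6 tested genes of this list had a negative log2 fold change. Macrophage markers overlapped (570 to 612 and 609 to 791 CPM), and gastric gland markers were 36.7 to 581 CPM in controls and 16.6 to 36.1 after SN-011. Their part was not tested.

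Averaged over the 4 tissues in a joint fit of all 24 libraries, Relb was the gene of the 10 that fell after SN-011, by 0.39 on the log2 scale (SE 0.09, edgeR adjusted p = 0.0115), where 7.67% of 19731 genes were called lower and 4.32% higher. The fit took the 24 libraries as independent, so tissues of 1 mouse, if there are such, count in it as separate replicates. At an unadjusted p under 0.05, 4 of the 10 were lower (17.0% of all genes), with Tnf at -1.08 ± 0.44 (edgeR adjusted p = 0.116), Il1rn at -0.75 ± 0.27 (edgeR adjusted p = 0.0781) and Birc3 at -0.41 ± 0.18 (edgeR adjusted p = 0.141) beside Relb. Tnfaip3 stood at -0.49 ± 0.30, Il1b at -0.41 ± 0.49, Il6 at -0.33 ± 0.51, Nfkb2 at -0.16 ± 0.19, Nfkbia at 0.06 ± 0.16 and Cxcl1 at 0.51 ± 0.45. Relb kept its call with each library left out (-0.35 to -0.42) and without the control replicate 1 libraries (-0.39, edgeR adjusted p = 0.0311), but not without the filter on low counts (-0.39, edgeR adjusted p = 0.0630). Without tongue control replicate 1, Il1rn was called as well, among 2711 of 20543 genes called.

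Whether the SN-011 effect differed between tissues was tested in the same fit. None of the 10 genes passed (2.32% of all genes did), and 2 of them, Relb and Il6, had an unadjusted p under 0.05 (17.7% of all genes), with edgeR adjusted p = 0.178 and 0.198. The effect in the stomach minus that in the tongue, a contrast chosen after these directions had been seen, was positive for all 10, with 0 called (0.821% of all genes) and 5 at an unadjusted p under 0.05 (15.4%). These were Il6 at 4.41 ± 1.49 (edgeR adjusted p = 0.148), Relb at 0.77 ± 0.27 (edgeR adjusted p = 0.158), Nfkbia at 1.13 ± 0.44 (edgeR adjusted p = 0.211), Il1rn at 1.83 ± 0.73 (edgeR adjusted p = 0.220) and Cxcl1 at 2.88 ± 1.30 (edgeR adjusted p = 0.291). Il6 passed the within-tissue count filter in no tissue and Cxcl1 not in the stomach, so the values of these genes rest on few counts. With the control replicate 1 libraries left out of every tissue, Nfkbia passed the test over 4 tissues (edgeR adjusted p = 0.0169), among 672 of 20291 genes. It did so too without muscle control replicate 1 alone (edgeR adjusted p = 0.0393), among 378 of 20572 genes. DESeq2 and the exact test were not run on these contrasts.

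Other genes of the pathway were read from lists of their own. Of 28 other NF-kB target genes, 23 were tested in the heart and 2 were called, both lower after SN-011 (all genes, 0.848%). The heart fit called 137 genes in all, and 5, 1 and 9 with SN-011 replicate 1, 2 or 3 left out. Ccl7, a monocyte chemokine, stood at 28.9, 32.7 and 56.9 CPM in controls and at 8.13, 6.05 and 11.9 CPM after SN-011 (log2 fold change -2.18 ± 0.31, edgeR adjusted p = 0.0281). Csf1, the growth factor of macrophages, stood at 110, 106 and 105 CPM in controls and at 59.1, 48.9 and 62.1 CPM after SN-011 (-0.92 ± 0.12, edgeR adjusted p = 0.0231). In both genes the groups were widely separated. The list had a negative log2 fold change in 17 of 23 tested genes in the heart (median -0.56), 15 of 19 in the tongue (-0.64), 10 of 16 in the muscle (-0.17) and 7 of 21 in the stomach (0.72). In the stomach, where none was called, the smallest p values belonged to 2 genes with positive values, Saa3, an acute-phase protein, at 6.29, 3.18 and 4.23 CPM against 99.6, 10.4 and 79.9 CPM (3.80 ± 0.75, edgeR adjusted p = 0.0674), and Gadd45b, a stress-response gene, at 23.96, 26.4 and 22.1 CPM against 49.4, 40.2 and 50.4 CPM (0.95 ± 0.22, edgeR adjusted p = 0.0747).

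**Figure D4:**
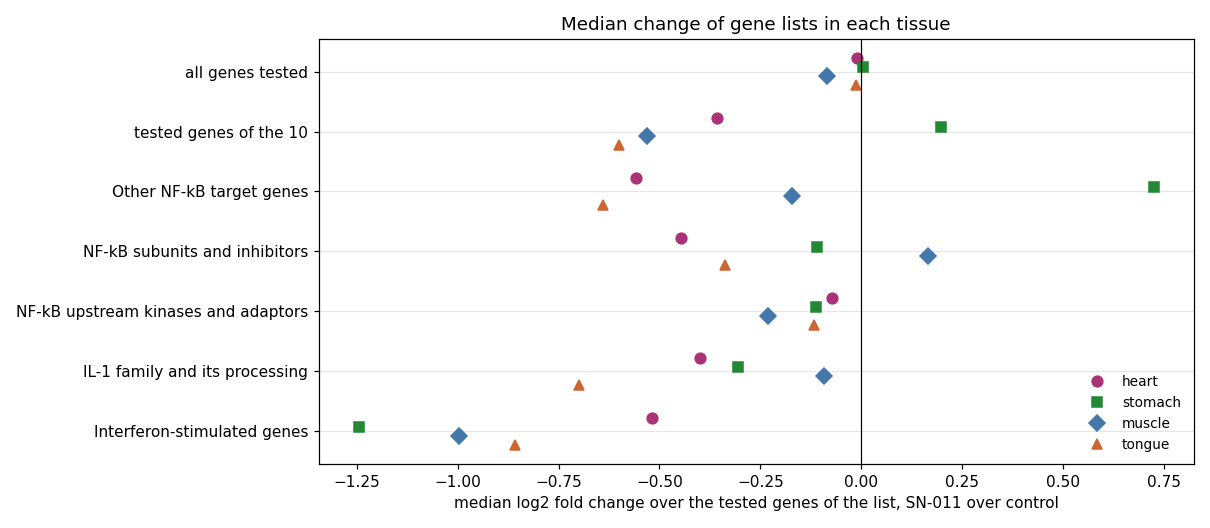
Median log2 fold change of SN-011 over control in each tissue, over the tested genes of each list. In the stomach the 2 NF-kB target lists lie above 0 (0.20 for the 10 genes and 0.72 for the other targets), while the interferon-stimulated genes lie at -1.25. The lists of subunits (-0.11), kinases and adaptors (-0.11) and interleukin-1 genes (-0.30) lie below 0 there too. In the heart and tongue the 2 target lists and the interferon-stimulated genes lie below 0.

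The interferon-stimulated genes, the other arm downstream of STING, had negative log2 fold changes in all 10 genes in the heart, stomach and tongue and in 9 of 10 in the muscle, with medians of -0.52, -1.25, -0.86 and -0.9975 in that order. In the stomach this was opposite in sign to the median of the 10 NF-kB genes. The stomach medians of the NF-kB subunits and inhibitors (-0.11), upstream kinases and adaptors (-0.11) and negative regulators (-0.29) were negative as well. Cxcl10, an interferon-induced chemokine that also has kB sites, was called in the heart (-1.49 ± 0.24, edgeR adjusted p = 0.0332), where 0.848% of all genes were called. Over the mean of 4 tissues 9 of the 10 interferon-stimulated genes fell (7.67% of all genes). These were Cxcl10 (-1.86), Rsad2 (-1.11), Ifit2 (-1.03), Ifit1 (-0.9999), Mx2 (-0.98), Isg15 (-0.98), Ifit3 (-0.88), Oasl2 (-0.82) and Irf7 (-0.45), with edgeR adjusted p from 5.03e-06 to 0.0216. For Usp18, which removes Isg15 from proteins, a difference of the SN-011 effect between tissues was called (edgeR adjusted p = 0.0214). The difference between the lists was not tested.

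Among the 8 other NF-kB subunits and inhibitors, none was called in a single tissue, and the medians were -0.45 in the heart, -0.34 in the tongue, -0.11 in the stomach and 0.17 in the muscle. Over the mean of 4 tissues Nfkb1, which encodes the p50 precursor, fell by 0.23 (SE 0.07, edgeR adjusted p = 0.0371). Of the 18 upstream kinases and adaptors, none was called in a single tissue, and over the mean of 4 tissues Traf3 fell by 0.38 (SE 0.09, edgeR adjusted p = 0.0106) and Traf6 by 0.49 (SE 0.11, edgeR adjusted p = 0.00568). Traf3 is part of the ligase that degrades NIK, and Traf6 carries signals from interleukin-1 and Toll-like receptors. Of the 8 negative regulators, the deubiquitinase gene Cyld fell by 0.30 over the 4 tissues (SE 0.07, edgeR adjusted p = 0.00690).

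Over the mean of 4 tissues, where 7.67% of all genes were called lower and 4.32% higher, 4 of the 25 tested other targets fell, Ccl7 by 1.61, Nos2 by 1.48, Bcl2a1a by 1.06 and Plau by 0.82, and 2 rose, Lcn2 by 1.81 (SE 0.33, edgeR adjusted p = 0.00184) and Saa3 by 1.54 (SE 0.36, edgeR adjusted p = 0.00848). Among 13 cytokine receptors, Il6ra, the interleukin-6 receptor, rose by 0.87 (SE 0.18, edgeR adjusted p = 0.00386). Among 12 genes of the interleukin-1 family and its processing, the alarmin gene Il33 fell by 1.11 (SE 0.27, edgeR adjusted p = 0.0106), and none of 7 ligands of the non-canonical pathway was called in any of these comparisons. The smallest p of these ligands were those of Lta in the heart (-1.41 ± 0.52, edgeR adjusted p = 0.163) and the tongue (-1.10 ± 0.75, edgeR adjusted p = 0.554) and of Tnfsf12 in the stomach (1.202 ± 0.48, edgeR adjusted p = 0.174) and the muscle (0.71 ± 0.47, edgeR adjusted p = 0.541). A difference of the SN-011 effect between tissues was called for Csf1 (edgeR adjusted p = 0.0332) and Selp (edgeR adjusted p = 0.0156) of the other targets and for Tax1bp1 (edgeR adjusted p = 0.0275) of the negative regulators.

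As a description over 24 libraries, with each tissue's mean removed, the genes most like each of the 10 were found among 19731. The points share libraries and depth, treatment is not removed, and no test was made. Relb was most like Ptpn6 (Pearson r = 0.813), Cd40 (0.801) and Csf1 (0.780), and with muscle SN-011 replicate 2 left out these were 0.812, 0.877 and 0.781. Nfkb2 was most like Bcl3 (0.928), a nuclear IkB protein, Adap1 (0.918) and Ccl3 (0.910), at 0.787, 0.817 and 0.831 over 23 libraries. Tnf was most like Acod1 (0.835), a macrophage enzyme, and Cxcl1 most like Tnfsf9 (0.914), at 0.835 and 0.880 over 23 libraries. For Tnfaip3 the highest was Gsap, at 0.973 over 24 libraries and 0.791 over 23, so that 1 library set much of it.

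Among the 10 genes themselves, over the 23 libraries without muscle SN-011 replicate 2, the closest pairs were Relb with Birc3 (r = 0.738) and Tnf with Birc3 (0.717), and the least alike was Il1b with Nfkbia (-0.173). Nfkbia had r values from -0.173 to 0.435 with the other 9. Tnfaip3 with Birc3 was at 0.864 over 24 libraries and 0.623 over 23, and Relb with Tnfaip3 was at 0.110 over 24 and 0.610 over 23. The 1 library thus raised some pairs and lowered others.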

How the data were processed

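Transcript abundance was measured by RNA-Seq in 4 tissues (heart, stomach, muscle, tongue) of Trex1-KO mice, with 3 libraries per tissue and treatment. The authors deposited raw counts per gene, not normalized, made from polyA RNA sequenced as read pairs, which the submitters' processing notes tie to HISAT2, HTSeq and mm10 and the methods text to Trimmomatic, hisat2 and featureCounts. No version, annotation or strand setting is given in the sources used here. Unless set otherwise, such counters leave out reads that fit more than 1 gene, which can lower genes that overlap others. Of 54532 identifiers, 54495 are in GENCODE M21 (GRCm38), which gave symbols, positions and exon lengths.

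SN-011 was tested against control separately per tissue with the quasi-likelihood functions of edgeR 4.0.16 under R 4.3.3, after TMM scaling and filterByExpr (count of 10, total of 15). All genes tested entered the Benjamini-Hochberg adjustment, and the threshold was 0.05. Comparisons across tissues used a joint fit of all 24 libraries. CPM in SN-011 comparisons were scaled within a tissue. Correlations used log2 CPM with a prior count of 2. Genes of the pathway lists were named where called in an SN-011 comparison, or else as the 1 or 2 with the smallest p of their list in a tissue, and the 3 most alike by Pearson's r were taken for each of the 10. Any other gene, such as Lum, was named after its values were seen. Single values were compared by a two-sided exact permutation test. Alternatives were DESeq2 1.42.0, DESeq2's size factors, edgeR's exact test, 2 other filters, a joint or control-only fit, the replicate number as a block, limma 3.58.1 voom, the longest transcript, and each library left out. As deviations from group means, control libraries of the same replicate number in 2 tissues correlated at 0.234 on average. The mean for other numbers (-0.114) is tied to this by the subtraction of group means, so it is not a separate baseline. The values were 0.247 to 0.519 for heart with muscle, 0.154 to 0.412 for muscle with tongue and 0.067 to 0.433 for heart with tongue. With the stomach they were 0.099 to 0.297 for heart, 0.078 to 0.219 for muscle and -0.138 to 0.246 for tongue. A pairing of control libraries by number was read from the data alone, and the sources used here do not give it. It entered only through the block of the alternatives, and the main tests took all libraries as independent. For SN-011 libraries the mean was 0.064 (other numbers, tied to it in the same way, -0.031). The fits were checked on simulated data. The 10 genes and all lists were chosen with earlier results of these data known. Tables and figures were made with Python 3.11.15, pandas 2.3.3, numpy 2.4.6, scipy 1.17.1 and matplotlib 3.10.9.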

Additional observations from a re-analysis of the deposited data

Results flagged for a closer look

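Nfkbia was singled out because its SN-011 libraries lay above all control libraries in the stomach and below all control libraries in the tongue. The log2 fold change of SN-011 over control was 0.65 ± 0.20 (SE, n = 3 per group) in the stomach and -0.52 ± 0.13 in the tongue. In a joint fit of all 24 libraries with edgeR's quasi-likelihood test, the difference between the 4 tissues had an adjusted p of 0.367, and the stomach effect minus the tongue effect was 1.13 ± 0.44 (edgeR adjusted p = 0.211), so that neither test passed with all libraries. Without muscle control replicate 1, where Nfkbia stood at 78.2 CPM against 26.5 and 26.0 CPM in the other muscle controls, the difference between the 4 tissues had an edgeR adjusted p of 0.0393, and without control replicate 1 of every tissue it was 0.0169. In the stomach, the summed squamous epithelium markers were 118 to 247 CPM in controls and 466 to 1522 CPM after SN-011, and the neutrophil markers 2.66 to 6.42 and 10.03 to 21.7 CPM. In the tongue, the summed gastric gland markers were 42.7 to 2652 CPM in controls and 12.9 to 41.7 CPM after SN-011. The part of these in the opposite signs was not tested.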

How the results depend on the processing

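In the heart, without the filter on low counts 3 of the 10 genes were called lower after SN-011 (Il1rn, Relb and Tnf), among 1888 of 30288 genes called. DESeq2 and edgeR's exact test each called 2, and leaving out each library in turn gave 0 to 2, with 1 to 787 called over all genes. In the stomach DESeq2 called 1 (Nfkbia). In the tongue DESeq2 called 3 and the exact test 2, and leaving out each library gave 0 to 7, with 0 to 2135 called over all genes. Over the mean of 4 tissues the count was 0 without the filter (2065 of 34706 genes were called) and 1 to 2 with each library left out (1715 to 3498 called over all genes). The difference between tissues gave 0 to 1 with each library left out (94 to 1051 called over all genes). It gave 1 without the control replicate 1 libraries (672 of 20291 genes called), an alternative chosen after seeing the data. Between control tissues, leaving out each library gave 2 to 5 calls for heart and muscle (5114 to 5748 over all genes) and 2 to 6 for heart and stomach (7010 to 8254). It gave 1 to 2 for stomach and muscle (8923 to 9915) and 3 to 5 for tongue and muscle (6234 to 7109). Leaving out the control replicate 1 libraries gave 3 for heart and stomach (6606 over all genes) and 2 for heart and tongue (4623).

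Within a tissue, control and SN-011 libraries shared only a number, with correlations of their deviations from group means of -0.39 to 0.285. With the replicate block within each tissue, 0 of the 10 genes were called, and Il1b in the stomach turned to -0.032 (0.08 without the block). Among control samples only, the replicate block gave 2 calls for heart and tongue, 2 for stomach and muscle and 5 for stomach and tongue. With limma voom and libraries of 1 treatment and number as a block, 1 of the 10 genes was called over the mean of 4 tissues, as without it. That fit called 1777 of 19731 genes.

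Under DESeq2's size factors, the median of the 10 genes shifted by 0.235 (log2) in stomach against muscle, 0.16 in heart against muscle and 0.15 in tongue against muscle, and Relb (0.21), Tnfaip3 (0.23) and Nfkb2 (0.11) turned positive there, as did Il6 in heart against muscle (0.072) and Birc3 in stomach against tongue (0.013). Without the control replicate 1 libraries, Tnfaip3 (0.31) and Nfkbia (0.020) turned positive in stomach against muscle. With each library left out, small SN-011 values crossed 0 in the heart for Il1b (-0.061 to 0.89), Cxcl1 (-0.41 to 0.12) and Nfkbia (-0.34 to 0.17), in the stomach for Il1b (-0.35 to 0.59), Tnfaip3 (-0.046 to 0.57), Birc3 (-0.18 to 0.26) and Tnf (-0.81 to 0.29), in the muscle for Relb (-0.41 to 0.0082), in the tongue for Cxcl1 (-0.60 to 0.75), and over the mean of 4 tissues for Nfkbia (-0.0026 to 0.24). Between control tissues this was so for Il6 (-0.47 to 0.37) and Nfkbia (-0.034 to 0.97) in heart against muscle, Il1b (-0.99 to 0.37) and Tnf (-0.91 to 0.28) in heart against tongue, Relb (-0.060 to 0.028), Tnfaip3 (-0.30 to 0.29), Nfkbia (-0.93 to 0.035) and Nfkb2 (-0.31 to 0.17) in stomach against muscle, Birc3 (-0.29 to 0.021) in stomach against tongue and Cxcl1 (-0.53 to 0.96) in tongue against muscle. The cause was not tested.

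Over all genes, the number called in the heart was 137, and 1361 by DESeq2, 918 by the exact test and 1888 without the filter; for stomach 0, and 2389, 1835 and 1368; for muscle 2, and 880, 479 and 110; for tongue 0, and 418, 253 and 18. The joint fit called 1, 2738, 474 and 4 genes in these tissues, the replicate block 242, 181, 0 and 0, and at least 10 counts in every sample 265, 126, 75 and 0. Depth limits Il6, Cxcl1, Tnf and Il1b, which had at most 14 counts in any muscle library.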
